A study of Mus musculus with 9 samples.

Results

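The Toll-like receptor genes are a family of innate immune sensors, and 10 of them were followed here: Tlr1, Tlr2, Tlr3, Tlr4, Tlr5, Tlr6, Tlr7, Tlr8, Tlr9 and Tlr13. They were taken by gene symbol from a table of raw counts for 56748 genes, and all 10 were found and had enough counts to be tested. The family has 12 genes in that table, and the remaining pair, Tlr11 and Tlr12, was described beside the others. RNA was sequenced from adult C57BL/6J mice of wild-type genotype, 2 to 3 months old, in 3 groups of 3 libraries. Uninjured cortex was intact tissue, and injured cortex was the core of a lesion made as a grid of stab wounds with a surgical lancet. Both were dissociated and sorted by flow cytometry to remove debris, dead cells and a neuronal fraction positive for the surface protein CD171 and negative for ACSA-2. Reactive cultures were grown from lesion cores in serum-containing medium and harvested without that sort. Each group is described as 3 biological replicates. The sample labels put dissection at 1 day after injury and culture at 6 days, whereas the design text gives 3 days for the injured cortex and 8 days in vitro for the cultures, and the files do not settle which holds. Sorting, serum, time and life in culture differ together between the cultures and the cortex groups, so their parts in a difference cannot be told apart.

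Toll-like receptors recognise conserved molecules of microbes and some molecules released by damaged cells. TLR1, TLR2, TLR4, TLR5 and TLR6 act mainly at the cell surface, where TLR2 pairs with TLR1 or TLR6 to bind lipopeptides, TLR4 senses lipopolysaccharide and TLR5 senses flagellin. TLR3, TLR7, TLR8, TLR9 and TLR13 act in endosomes, where they sense nucleic acids: double-stranded RNA, single-stranded RNA, CpG DNA and, for the rodent receptor TLR13, bacterial ribosomal RNA. Except for TLR3, which uses the adaptor TRIF, the receptors signal through MyD88 to NF-kB and interferon regulatory factors and so to cytokine genes. In brain, microglia and infiltrating myeloid cells are the best-known carriers of most of these receptors, and astrocytes are known for TLR3.

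Promoter sequences of 4 members are shown: Tlr2, the leading receptor of injured cortex, Tlr13, that of the cultures, Tlr8, which was higher in both than in uninjured cortex, and Tlr3, which was lower in the cultures than in either cortex group. Of the 10 members, 8 had an entry in the RefSeq promoter table (GRCm38.p6); Tlr4 and Tlr7 are named only. Each window runs from 250 bases before to 30 bases after the annotated start, 5′ to 3′ on the gene's strand. Capitals mark matches on either strand to the core GAGGAA of the myeloid factor PU.1, or to the NF-kB consensus. The windows are chr3:83841579-83841858 on the minus strand for Tlr2, chrX:106143025-106143304 on the plus strand for Tlr13, chrX:167264300-167264579 on the minus strand for Tlr8 and chr8:45410351-45410630 on the minus strand for Tlr3.
Tlr2: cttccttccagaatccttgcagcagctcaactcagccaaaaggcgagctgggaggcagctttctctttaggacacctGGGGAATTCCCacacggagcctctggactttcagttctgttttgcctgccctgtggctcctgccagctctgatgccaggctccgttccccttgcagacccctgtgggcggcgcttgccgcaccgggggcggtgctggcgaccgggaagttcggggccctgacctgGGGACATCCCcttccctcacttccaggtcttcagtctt
Tlr13: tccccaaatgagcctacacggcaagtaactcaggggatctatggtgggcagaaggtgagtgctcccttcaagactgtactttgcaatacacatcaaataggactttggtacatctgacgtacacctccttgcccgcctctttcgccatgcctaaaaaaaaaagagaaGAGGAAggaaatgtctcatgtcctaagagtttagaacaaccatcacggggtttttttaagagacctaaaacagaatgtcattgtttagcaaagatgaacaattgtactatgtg
Tlr8: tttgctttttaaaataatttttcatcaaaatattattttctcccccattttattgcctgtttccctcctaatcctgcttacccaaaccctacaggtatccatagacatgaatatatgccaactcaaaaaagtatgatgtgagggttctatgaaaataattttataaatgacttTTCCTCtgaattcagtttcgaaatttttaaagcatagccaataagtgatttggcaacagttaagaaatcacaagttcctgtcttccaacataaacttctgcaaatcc
Tlr3: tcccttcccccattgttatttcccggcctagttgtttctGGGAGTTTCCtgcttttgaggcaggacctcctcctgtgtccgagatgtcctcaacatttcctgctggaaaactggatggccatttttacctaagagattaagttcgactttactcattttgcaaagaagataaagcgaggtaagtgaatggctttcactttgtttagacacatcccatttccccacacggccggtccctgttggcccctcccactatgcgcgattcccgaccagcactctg

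The Tlr2 window held overlapping matches to the NF-kB consensus starting 173 and 172 bases before the start and another starting 8 bases before it. Tlr3 held 1 such match, starting 211 bases before its start. The PU.1 core was found 83 bases before the start of Tlr13 and 77 bases before that of Tlr8, in both cases with no NF-kB consensus match. Over all 32851 promoters of the table, searched in windows of the same 300 bases (250 before and 50 after the start), 28.3% held GAGGAA and 8.46% held the NF-kB consensus. The other patterns searched, on both strands, were an interferon-stimulated element (in 3.44% of promoters), TGANTCA for AP-1 (7.81%) and a pair of exact NF-kB sites (0.155% and 0.0883%). Among the 8 members the interferon-stimulated element matched only Tlr6, TGANTCA only Tlr9, and neither exact NF-kB site matched any. The PU.1 core was also found in 1 of the windows of Tlr1 and in that of Tlr9, and Tlr5 matched nothing. A match describes the letters in the window and is not a binding site. The NF-kB consensus was added after the sequences had been read.

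By GENCODE M21 (GRCm38), Tlr7, Tlr8 and Tlr13 lie on chromosome X, Tlr1 and Tlr6 on 5, Tlr2 on 3, Tlr3 on 8, Tlr4 on 4, Tlr5 on 1 and Tlr9 on 9. Tlr1, Tlr2 and Tlr6 have a single coding exon of 784 to 806 residues, and the endosomal receptors encode 905 to 1050 residues.

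Total counts ranged from 12205049 to 24302770 per library. Uninjured replicates 2 and 3 stood apart over 1999 olfactory and vomeronasal receptor genes, with 182 and 151 CPM (counts scaled to library size). The other 7 libraries had 14.4 to 44.1 CPM over these genes. The comparisons with uninjured cortex were therefore also run without replicates 2 and 3. That leaves uninjured replicate 1, which had the highest Tlr2 level of its group. Levels were scaled by TMM, the trimmed mean of M values, whose factors were 1.13 to 1.35 in uninjured cortex, 0.938 to 1.39 in injured cortex and 0.716 to 0.767 in the cultures. The summed level of 10 pan-myeloid genes was 5858 to 7275 TMM CPM in uninjured cortex, 5852 to 14108 in injured cortex and 9227 to 10058 in the cultures. Per library total it was 7904 to 8413, 8151 to 13228 and 6918 to 7416 CPM, so the order of uninjured cortex and cultures turned with the scale. Homeostatic microglia markers (10 genes) summed to 11736 to 18577, 8915 to 22630 and 3369 to 4316 TMM CPM in the same order. Monocyte and macrophage markers (10 genes) summed to 505 to 608, 1954 to 8724 and 40223 to 47915. That list was split, with 4 genes higher and 5 lower in the cultures against injured cortex (median log2 fold change -0.72). Against uninjured cortex 6 were higher and 3 lower. Astrocyte markers (9 genes) summed to 4015 to 7041, 2577 to 4282 and 231 to 251 TMM CPM. In such bulk libraries, fewer cells of a type and less RNA per cell cannot be told apart. The part of these shifts in the receptor results was not tested. Injured replicate 3, with the highest TMM factor, had the lowest TMM CPM of its group for each of the 10 members and for the pan-myeloid sum.

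Tlr2, the shared subunit of the lipopeptide receptors, gained the most CPM of the family after injury. It stood at 86.6, 42.3 and 29.3 CPM (TMM-scaled, as are all levels here unless stated) in uninjured replicates 1, 2 and 3, at 367, 609 and 153 CPM in injured cortex and at 27.7, 21.7 and 33.3 CPM in the cultures. The lowest injured library lay above the highest uninjured one, and the cultures overlapped the uninjured range. Mean levels were 52.7 ± 30.02 CPM (SD, n = 3) in uninjured and 376 ± 228 CPM (SD, n = 3) in injured cortex, a log2 fold change of 2.84 ± 0.49 (SE) with an adjusted p of 0.00287 by edgeR's quasi-likelihood test. Against injured cortex, the cultures were lower by a log2 fold change of -3.77 ± 0.52 (adjusted p = 9.76e-05), down to 27.6 ± 5.80 CPM. Against uninjured cortex the cultures' Tlr2 gave -0.93 ± 0.47, with a 95% interval of -1.95 to 0.08, and was not called (adjusted p = 0.101).

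Tlr1 and Tlr6 encode the partners of TLR2. Tlr1 was at 13.5, 14.5 and 10.98 CPM in uninjured cortex, at 31.4, 34.5 and 12.9 CPM in injured cortex and at 13.0, 12.4 and 11.4 CPM in the cultures. Injured replicates 1 and 2 were above every other library, and injured replicate 3 lay within the uninjured range. The log2 fold change with injury was 1.01 ± 0.32, with a 95% interval of 0.31 to 1.71, and missed the threshold (adjusted p = 0.0617; 0.000831 without injured replicate 3, and 0.000831 to 0.455 over all alternatives). In the cultures Tlr1 was lower than in injured cortex by -1.09 ± 0.32 (adjusted p = 0.0143), a call lost without injured replicate 1 (0.0531), injured replicate 2 (0.0599) or culture replicate 3 (0.0540), with 0.000168 to 0.0599 over all alternatives. Tlr6 was at 9.40 to 13.9 CPM in uninjured cortex, 7.66 to 17.96 CPM in injured cortex and 8.29 to 10.7 CPM in the cultures, and the 3 ranges overlapped. It was not called in any comparison, and the 95% interval of its injury difference was -0.68 to 0.71. Tlr1 and Tlr6 lie close together on chromosome 5 with 1 coding exon each, and their GENCODE M21 transcripts share a run of 229 identical bases. Windows of 100 bases found in both made up 8.85% of the Tlr1 transcript and 7.24% of that of Tlr6, so the division of counts within the pair is uncertain.

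Relative to its partners, Tlr2 moved further. On the scale of CPM per kilobase of exon, the ratio of Tlr2 to Tlr1 was 2.96 to 7.13 in uninjured cortex, 13.0 to 19.6 in injured cortex and 1.94 to 3.24 in the cultures. The ratio of Tlr2 to Tlr6 was 3.03 to 7.69, 24.8 to 45.3 and 2.87 to 4.97 in the same order. Both ratios were higher in every injured library than in any of the other 6.

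Tlr4, the lipopolysaccharide receptor, was at 21.9, 20.3 and 15.3 CPM in uninjured cortex, at 25.8, 25.4 and 9.09 CPM in injured cortex and at 42.4, 30.01 and 26.6 CPM in the cultures. Each culture was above each cortex library on this scale, but not per library total, where the groups overlapped. The differences were not called, at 0.72 ± 0.35 against injured cortex (95% interval -0.04 to 1.48, adjusted p = 0.105) and 0.78 ± 0.35 against uninjured cortex (0.02 to 1.55, adjusted p = 0.0714). With injury the fitted difference was 0.06 ± 0.35, and its sign depended on the scaling: it was -0.08 with upper-quartile factors.

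Tlr5, the flagellin receptor, had the lowest per-kilobase level of the surface receptors in all 3 groups. It had 49, 64 and 63 counts in uninjured cortex (2.71, 2.88 and 3.84 CPM), 43, 34 and 24 counts in injured cortex (2.03, 1.78 and 0.817 CPM) and 0, 4 and 1 counts in the cultures. All injured libraries were below all uninjured ones, but the difference of -1.03 ± 0.55 was not called (95% interval -2.24 to 0.17, adjusted p = 0.266). The cultures were lower than injured cortex by -3.77 ± 0.75 (adjusted p = 0.00141) and lower than uninjured cortex by -4.80 ± 0.74 (adjusted p = 0.00017). With so few culture counts these folds are loose: without culture replicate 2 they were -5.23 and -6.27, and without culture replicate 1 the latter was -4.21, all still called.

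**Figure D1:**
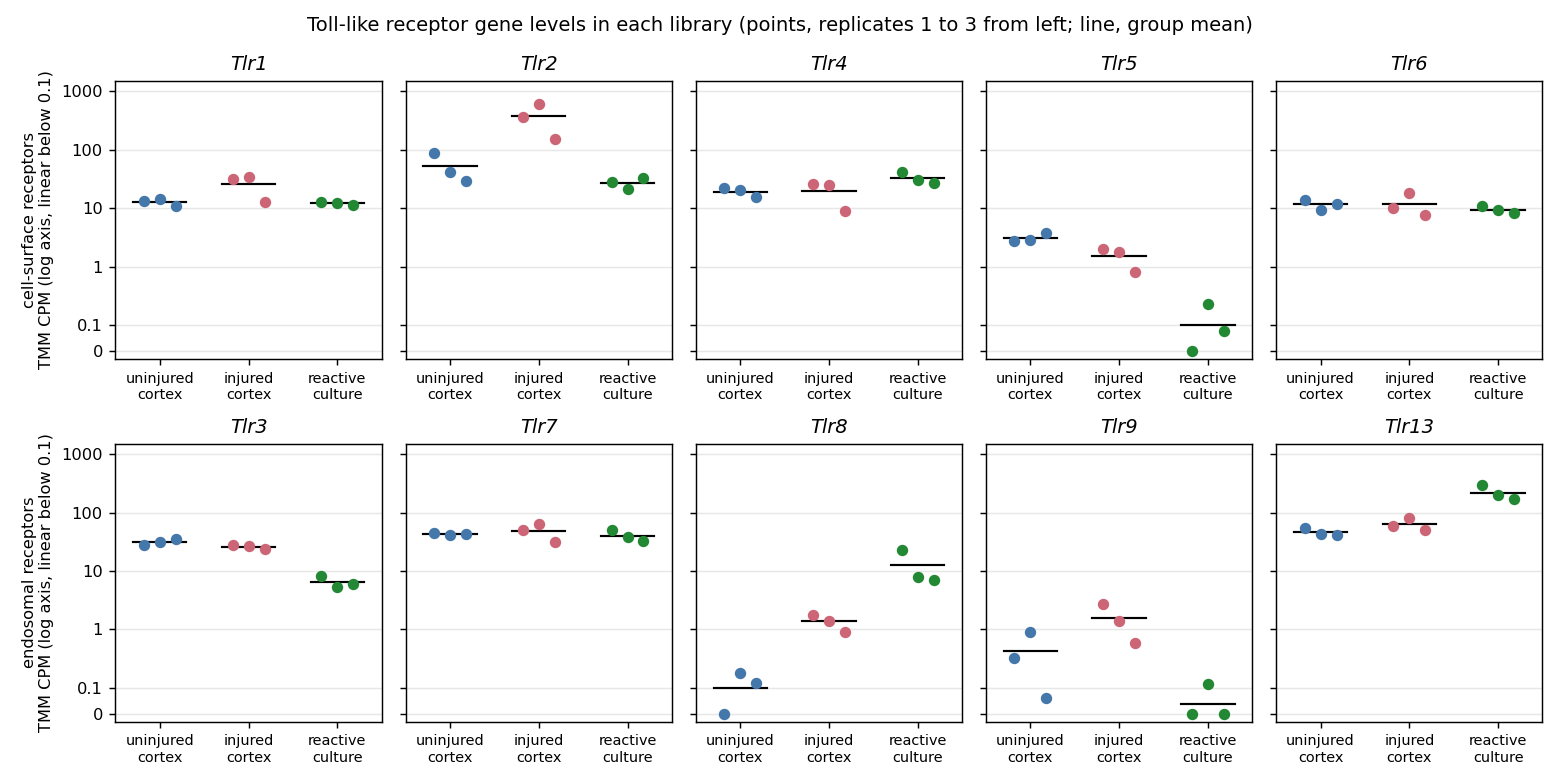
Level of each Toll-like receptor gene in TMM-scaled CPM (log axis, linear below 0.1) in the 9 libraries; points are replicates 1 to 3 from left to right and lines are group means. Tlr2 is highest in the 3 injured libraries (153 to 609 CPM), Tlr13 in the 3 cultures (168 to 295 CPM), and Tlr8 goes from 0 to 0.180 CPM in uninjured cortex to 6.89 to 22.5 CPM in the cultures.

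Of the endosomal receptors, Tlr13 and Tlr8 were higher in the cultures, Tlr13 at the higher per-kilobase level. Tlr13 was at 55.0, 43.6 and 41.4 CPM in uninjured cortex, at 57.7, 79.9 and 51.1 CPM in injured cortex and at 295, 196 and 168 CPM in the cultures. The cultures did not overlap the other groups, and the cortex groups overlapped each other. Tlr13 was higher in the cultures by 1.80 ± 0.26 against injured cortex (adjusted p = 0.000167) and by 2.23 ± 0.27 against uninjured cortex (adjusted p = 2.32e-05). With injury its difference was 0.43 ± 0.26 (95% interval -0.13 to 0.99, adjusted p = 0.322).

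Tlr8, a sensor related to TLR7, was low in cortex and had 0, 4 and 2 counts in uninjured cortex. Injured cortex had 38, 27 and 27 counts (1.79, 1.41 and 0.919 CPM) and the cultures 367, 138 and 88 (22.5, 7.93 and 6.89 CPM). The 3 groups did not overlap one another. The log2 fold change was 3.63 ± 0.76 with injury (adjusted p = 0.00863), and 3.18 ± 0.57 in the cultures against injured cortex (adjusted p = 0.000672). Against uninjured cortex, whose counts are too few to fix a fold closely, the cultures gave 6.81 ± 0.75 (adjusted p = 1.11e-05). Culture replicate 1 lay well above the other cultures, and without it the culture differences were 2.44 and 6.09. Without uninjured replicate 2 the differences from uninjured cortex were 4.38 for injury and 7.57 for the cultures, and every one of these remained called.

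Tlr7, the receptor for single-stranded RNA, was at 42.1 to 44.6 CPM in uninjured cortex, 31.9 to 62.5 CPM in injured cortex and 32.1 to 50.5 CPM in the cultures. It was not called in any comparison, and its 95% intervals were -0.38 to 0.72 with injury, -0.82 to 0.29 for cultures against injured cortex and -0.65 to 0.45 against uninjured cortex. The per-kilobase ratio of Tlr13 to Tlr7 was 0.925 to 1.17 in uninjured cortex, 1.08 to 1.52 in injured cortex and 4.92 to 5.53 in the cultures.

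Tlr3 encodes the sensor of double-stranded RNA that, unlike the rest, does not signal through MyD88. Its level was 27.7, 31.1 and 34.6 CPM in uninjured cortex and 27.98, 26.5 and 23.9 CPM in injured cortex. In the cultures it was 8.29, 5.23 and 6.03 CPM. The cortex ranges overlapped and the cultures lay below both. Tlr3 was lower in the cultures by -2.002 ± 0.23 against injured cortex (adjusted p = 2.68e-05) and by -2.25 ± 0.23 against uninjured cortex (adjusted p = 6.57e-06). Its injury difference was -0.25 ± 0.22 (95% interval -0.73 to 0.22).

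Tlr9, the receptor for CpG DNA, had 6, 20 and 1 counts in uninjured cortex, 58, 27 and 17 in injured cortex and 0, 2 and 0 in the cultures. The 2 counts in the cultures were 51.2-fold below injured cortex relative to library totals (95% counting interval 13.8 to 429) and 18.1-fold below uninjured cortex (4.54 to 157). The test called the cultures lower than injured cortex (adjusted p = 0.00418) and than uninjured cortex (adjusted p = 0.042). The latter call was lost without uninjured replicate 2 (0.217), injured replicate 2 (0.0519), culture replicate 1 (0.131) or culture replicate 3 (0.113), with 0.01 to 0.217 over all alternatives. It was also lost with only uninjured replicate 1 left in that group, where the fitted difference was -2.80 against -3.21 with all libraries. Against injured cortex the fitted difference was -5.01 ± 1.18, and -4.36 without injured replicate 1. Without culture replicate 2 the cultures were at 0 counts, and Tlr9 was still called (adjusted p = 0.00953, with 6.1e-06 to 0.0249 over all alternatives). The injury difference, 1.80 ± 0.86, was not called (95% interval -0.07 to 3.67, adjusted p = 0.207). B cells are known to carry Tlr9, and Pax5, a B cell transcription factor gene, was at 0 in the cultures. The 9 dendritic cell markers summed to 54.6 to 72.8, 97.9 to 435 and 14.4 to 16.8 TMM CPM in uninjured cortex, injured cortex and cultures, with Xcr1 at 0 in the cultures. The part of these cell types in the Tlr9 result was not tested.

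Tlr12 and Tlr11 were likewise at or near 0 in the cultures. Tlr12, which pairs with TLR11 in sensing profilin of parasites, had 126, 85 and 111 counts in uninjured cortex, 138, 84 and 112 in injured cortex, and 1 count in all cultures together. That single count was 336-fold below injured cortex relative to library totals (95% counting interval 59.8 to 13292). Tlr11 had 4, 3 and 2 counts, then 8, 9 and 11, then 0 in every culture, which was at least 9.38-fold lower than injured cortex, taking 3 counts over the group as the floor. Tlr11 had too few counts to be tested.

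Counted over the family, injury raised 2 of the 10 members (Tlr2 and Tlr8) and lowered 0, while 11.9% of the 18093 genes tested were called, 8.99% higher and 2.87% lower. At an unadjusted p under 0.05 edgeR had 3 members higher and 0 lower, where 26.2% of all genes passed, and DESeq2 and limma-voom also called 0 lower. Of all genes called, 75.8% were higher, and 64.0% with upper-quartile scaling, which moved the median of all genes to -0.12. Groups did not overlap for 3 members (Tlr2 and Tlr8 higher, Tlr5 lower), against 28.6% of all genes (16.1% higher and 12.5% lower). The median log2 fold change was 0.30 over the members and 0.0012 over all genes. Without uninjured replicates 2 and 3 together, neither member was called: Tlr2 then gave 2.11 (adjusted p = 0.145, with 6.6e-22 to 0.145 over all alternatives) and Tlr8, whose remaining uninjured library was at 0 counts and gives no fold, an adjusted p of 0.0604 (2.9e-08 to 0.0604 over all alternatives), and 462 genes were called in place of 2145. The lone uninjured library left, replicate 1, had the highest Tlr2 of its group, at 86.6 CPM against 42.3 and 29.3. It is assumed to vary like the other groups. With 1 library left out at a time, both calls held in each of the 9 fits.

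Between the cultures and injured cortex, 7 of 10 members were called, 2 higher (Tlr13 and Tlr8) and 5 lower (Tlr1, Tlr2, Tlr3, Tlr5 and Tlr9), where 50.1% of all genes were called, 20% higher and 30.1% lower. Groups did not overlap for 7 members, 3 higher and 4 lower, against 59.7% of all genes (25.8% higher and 33.8% lower). Medians were -0.71 over the members and -0.19 over all genes. Between the cultures and uninjured cortex, 5 of 10 were called, 2 higher (Tlr13 and Tlr8) and 3 lower (Tlr3, Tlr5 and Tlr9), where 60.5% of all genes were called, 27.5% higher and 33.1% lower. Groups did not overlap for 5 members, 3 higher and 2 lower, against 69.2% of all genes (32.1% higher and 37.1% lower), and medians were -0.20 and -0.17. The family's counts thus lie on both sides of the share of all genes called, and the family was not tested against it. The comparisons share libraries and are not independent of each other.

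**Figure D2:**
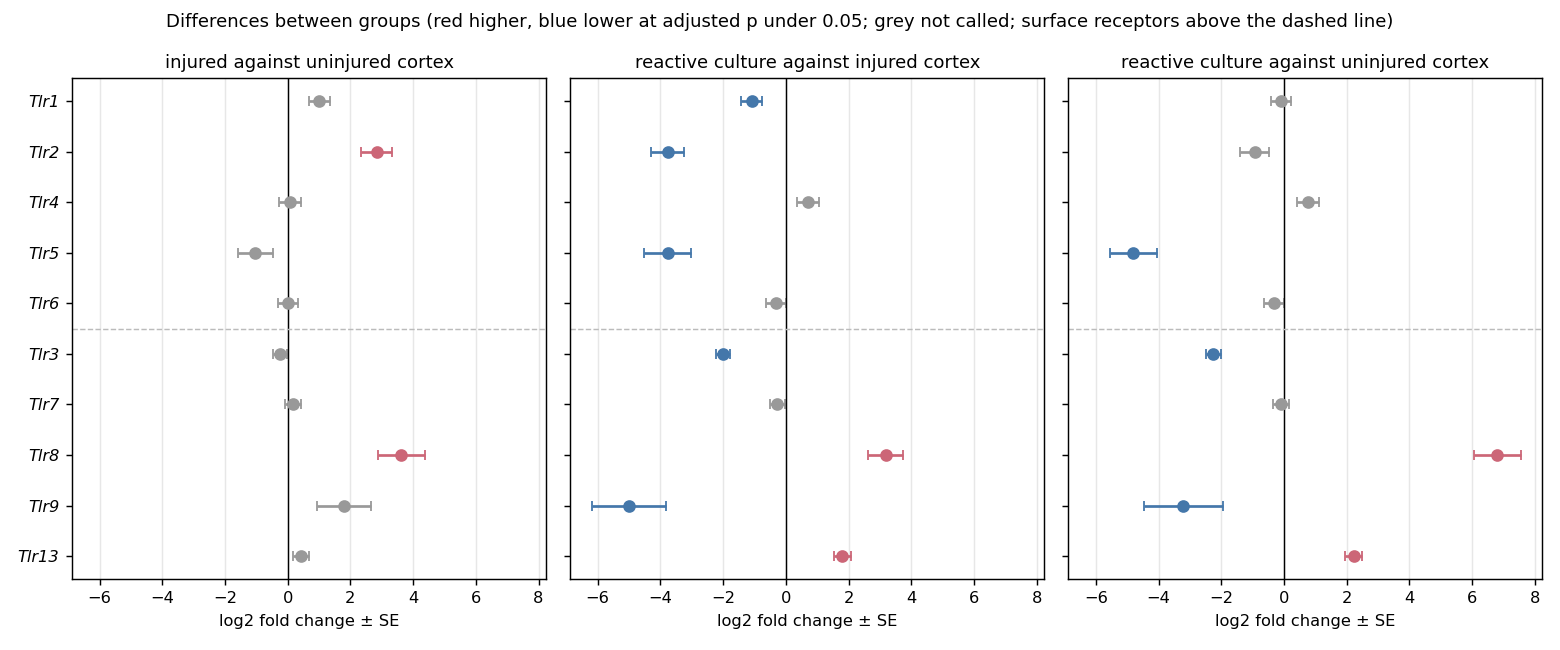
Log2 fold change ± SE of each member in the 3 comparisons (horizontal axis), with surface receptors above the dashed line and endosomal ones below; red and blue points passed an adjusted p of 0.05, grey points did not. Only Tlr2 and Tlr8 are red in the injury comparison, while Tlr13 and Tlr8 are the red points in both culture comparisons.

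Per kilobase of exon, which allows levels of different genes to be compared, the leading receptor changed between groups. In uninjured cortex Tlr2, Tlr13 and Tlr7 were at 17.5 ± 9.96, 10.8 ± 1.70 and 10.5 ± 0.334 CPM per kb (SD, n = 3), and their ranges overlapped. Tlr3 followed at 5.98 ± 0.659, below each of them and above Tlr1, Tlr4 and Tlr6, which overlapped their neighbours at 3.88, 3.45 and 3.16. Tlr5 was at 0.656, Tlr9 at 0.124 and Tlr8 at 0.028 CPM per kb, the last pair overlapping.

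In injured cortex Tlr2 led at 125 ± 75.7 CPM per kb, apart from every other member. Tlr13 (14.6), Tlr7 (11.8), Tlr1 (7.84), Tlr3 (5.02), Tlr4 (3.62) and Tlr6 (3.19) followed in that order, each overlapping the next, and Tlr9 (0.453), Tlr8 (0.383) and Tlr5 (0.322) overlapped at the bottom. In the cultures Tlr13 led at 50.95 ± 15.5 CPM per kb, apart from Tlr7 (9.83), Tlr2 (9.15) and Tlr4 (5.94), of which neighbours overlapped. Tlr1 (3.67), Tlr8 (3.47) and Tlr6 (2.54) came next, neighbours again overlapping, and Tlr3 (1.25) lay apart above Tlr5 (0.0215) and Tlr9 (0.011).

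As a share of the summed per-kilobase level of the 10 members, Tlr2 made up 20.9% to 40.96% in uninjured cortex, 61.1% to 77.2% in injured cortex and 8.19% to 15.5% in the cultures. Tlr13 made up 18.2% to 20.7%, 7.09% to 14.2% and 54.5% to 60.96%. The 5 surface receptors together held 42.5% to 58.5% in uninjured cortex, 70.4% to 84.8% in injured cortex and 21.01% to 30.1% in the cultures. These ranges did not overlap. Among the surface receptors only Tlr2 had a larger share in injured than in uninjured cortex. The shares of Tlr1, Tlr4, Tlr5 and Tlr6 were smaller in every injured library than in any uninjured one. In the cultures the shares of Tlr13 and Tlr8 lay above both cortex groups, and that of Tlr3 lay below both. Taking the length of the main coding transcript in place of all exons moved the Tlr2 share in injured cortex to 58.9% to 75.5% and left the leading member of each group in place.

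**Figure D3:**
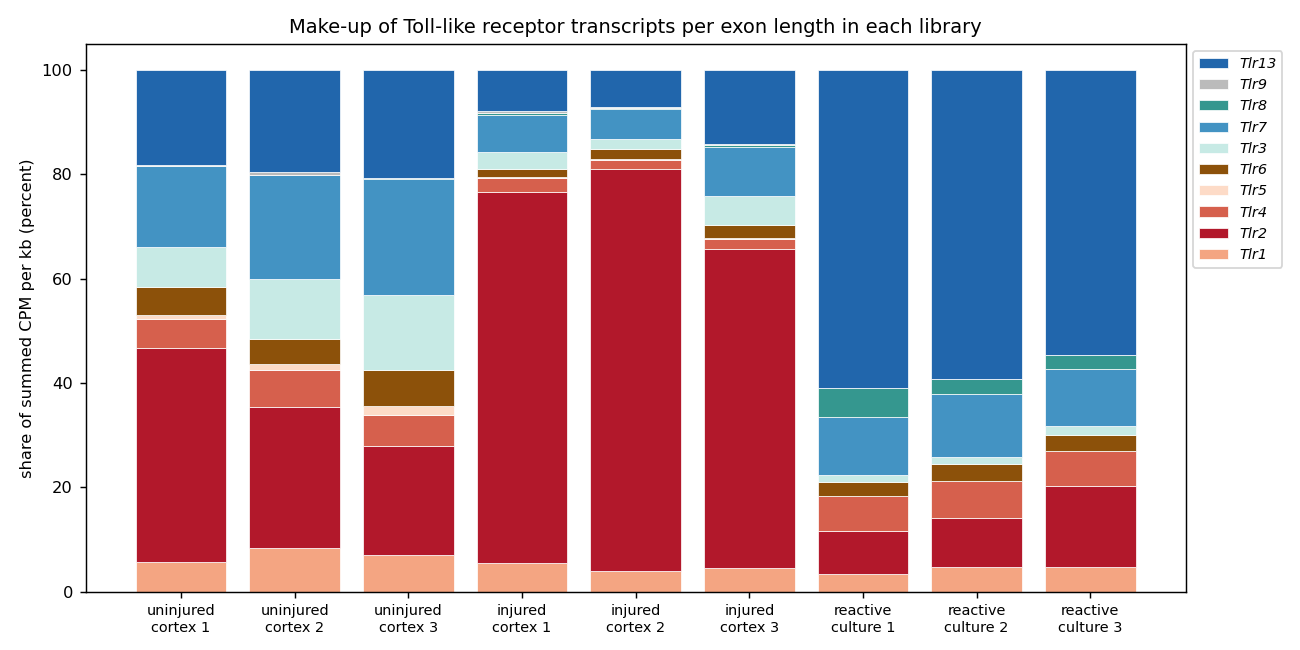
Share of each member in the summed CPM per kb of the 10 genes (percent, stacked bars) in each of the 9 libraries, surface receptors in warm colours at the bottom and endosomal ones in cool colours at the top, with Tlr9 in grey. Tlr2 fills 61.1% to 77.2% of the injured libraries and Tlr13 54.5% to 60.96% of the cultures.

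Because myeloid cells carry much of this family, members were also set against the counts of 10 pan-myeloid genes in the same library. Per 1000 such counts, Tlr2 was 11.9, 6.01 and 4.98 in uninjured cortex, 32.3, 43.1 and 26.2 in injured cortex and 3.00, 2.16 and 3.45 in the cultures. The injured libraries were the highest and the groups did not overlap. Tlr13 was 6.20 to 7.55, 5.08 to 8.71 and 17.3 to 31.9 in the same order, and Tlr7 was 5.98 to 7.20, 4.43 to 5.44 and 3.32 to 5.47. Tlr4 was 2.60 to 3.01 in uninjured cortex, 1.55 to 2.27 in injured cortex and 2.75 to 4.597 in the cultures. The sum of all 10 members was 32.8 ± 3.57, 53.8 ± 6.17 and 37.7 ± 11.5 (SD, n = 3). The pan-myeloid genes themselves changed in part, with 1 of 10 higher after injury and 1 higher and 3 lower in the cultures against injured cortex. Against uninjured cortex the cultures had 3 of them higher and 2 lower. These ratios are therefore descriptions and not levels per cell.

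**Figure D4:**
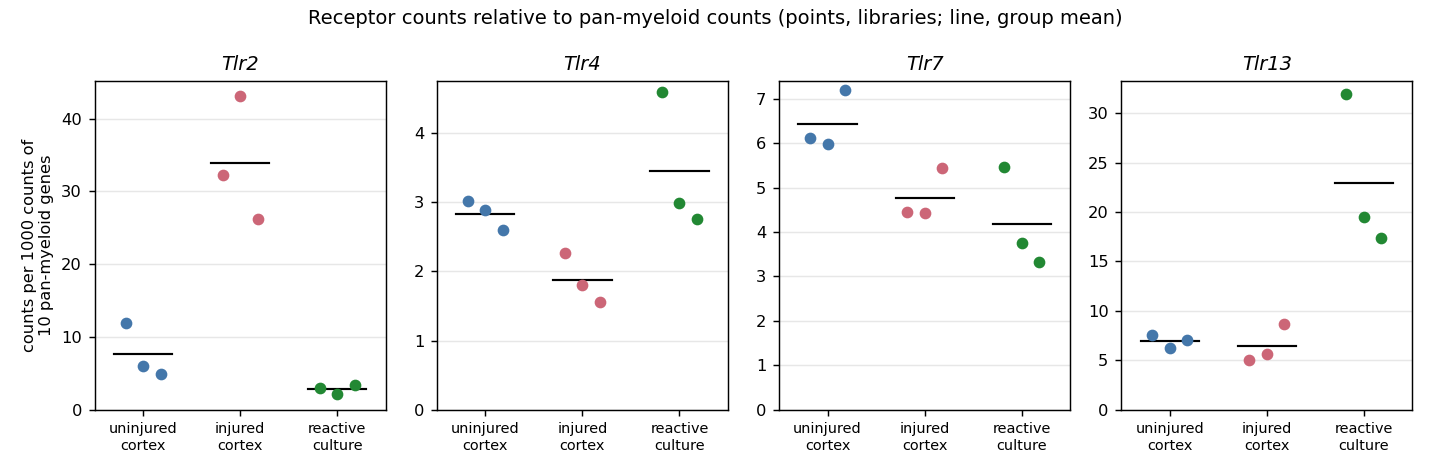
Counts of Tlr2, Tlr4, Tlr7 and Tlr13 per 1000 counts of 10 pan-myeloid genes (vertical axes, each from 0) in the 9 libraries; points are libraries and lines group means. The injured libraries are highest for Tlr2 (26.2 to 43.1) and the cultures for Tlr13 (17.3 to 31.9).

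Beside the list counts that follow, 8.99% of all genes tested were called higher and 2.87% lower with injury. In the cultures against injured cortex these shares were 20% and 30.1%, and no list was tested against them. Among co-receptors and accessory proteins (6 genes), 1 rose with injury and none fell, with a list median of 1.26. Ly86, whose product MD-1 serves the receptor homologue RP105, was the riser, from 524 to 1389.6 CPM (log2 fold change 1.41 ± 0.34, adjusted p = 0.0192). That call was lost without uninjured replicate 3 (0.0864), injured replicate 1 (0.0806) or injured replicate 2 (0.0558). Cd14, the lipopolysaccharide co-receptor, stood at 373, 1309.8 and 943 CPM in uninjured cortex, injured cortex and cultures and was not called with injury (adjusted p = 0.063). Against injured cortex the cultures had 2 genes higher and 1 lower (median 0.35). Cd36, a scavenger receptor that assists TLR2, was at 3681 CPM against 10.95 (8.40 ± 0.48, adjusted p = 1.27e-07), Lbp, the lipopolysaccharide-binding protein, at 7.29 against 0.833 (3.13 ± 0.58, adjusted p = 0.000947), and Ly86 was lower at 155 CPM (-3.16 ± 0.36, adjusted p = 2.65e-05). Ly96, the TLR4 partner MD-2, was at 38.3, 38.5 and 64.6 CPM.

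Of the 9 chaperone, trafficking and receptor-protease genes, 1 rose with injury (Ctsl, adjusted p = 0.0473, a call lost when any single library other than injured replicate 3 was left out; list median 0.41) and 4 were higher and 2 lower in the cultures against injured cortex (median 0.05). Ctsl and Ctsb, lysosomal cathepsins that cut endosomal receptors, were higher by 2.51 ± 0.41 (adjusted p = 0.0004) and 2.41 ± 0.50 (adjusted p = 0.00202). Unc93b1, the escort that carries nucleic-acid receptors to endosomes, was lower by -1.43 ± 0.35 (adjusted p = 0.00519), from 766 to 283 CPM. Tlr13, one of the receptors it is known to carry, was higher in that comparison.

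Of the 6 TIR adaptors, which link the receptors to kinases, 1 rose with injury (list median 0.51), and 1 fell in the cultures against injured cortex (median -0.31). Myd88 was at 60.6, 134 and 69.3 CPM in uninjured cortex, injured cortex and cultures and Ticam1, which encodes TRIF, at 8.75, 12.04 and 12.8, neither of them called with injury. The riser was Pik3ap1, a link to phosphoinositide kinase (1.56 ± 0.35, adjusted p = 0.0137), not called without uninjured replicate 2 (0.0743), uninjured replicate 3 (0.0655) or injured replicate 1 (0.0809). Sarm1 was the adaptor that fell (-1.40 ± 0.41, adjusted p = 0.0138), not called without culture replicate 3 (0.0516).

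Of the 17 kinases and ubiquitin ligases, 3 rose and none fell with injury (list median 0.30), and 5 were higher and 2 lower in the cultures against injured cortex (median 0.18). Ikbke, a kinase of the interferon branch, went from 1.68 to 6.06 CPM with injury (1.86 ± 0.35, adjusted p = 0.00484) and to 15.3 CPM in the cultures (1.33 ± 0.33 against injured cortex, adjusted p = 0.00564). Ikbkg, the regulatory subunit of the NF-kB kinase, was at 16.1 CPM in injured cortex and 60.1 in the cultures (1.90 ± 0.20, adjusted p = 1.17e-05). Ripk1 (1.19 ± 0.25, adjusted p = 0.00211) and Map3k7, which encodes the kinase TAK1 (1.00 ± 0.21, adjusted p = 0.00194), were also higher there. Traf6, the ubiquitin ligase downstream of MyD88, was lower at -0.96 ± 0.24 (adjusted p = 0.0059).

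Among the 8 transcription factors, 3 rose and none fell with injury (list median 0.85), and 5 fell and none rose in the cultures against injured cortex (median -1.68). With injury Irf7, the interferon regulatory factor of endosomal signalling, went from 8.28 to 260 CPM (4.97 ± 0.81, adjusted p = 0.0018), Nfkb2 rose by 1.62 ± 0.30 (adjusted p = 0.00453) and Relb by 1.29 ± 0.27 (adjusted p = 0.00784). In the cultures Rel was lower by -3.91 ± 0.42 (adjusted p = 1.58e-05) and Nfkb1 by -2.43 ± 0.26 (adjusted p = 1.49e-05), and Irf7 was at 21.02 CPM (-3.63 ± 0.75, adjusted p = 0.00189).

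Of the 12 negative regulators, 4 rose and none fell with injury (list median 0.84). In the cultures against injured cortex 1 rose and 6 fell (median -0.87). The list summed to 842 to 3593 TMM CPM in uninjured cortex, 2648 to 5620 in injured cortex and 851 to 904 in the cultures. The uninjured range thus overlapped both others. Tnip1, a partner of the deubiquitinase A20, rose with injury by 1.15 ± 0.22 (adjusted p = 0.00594). Nfkbia, the NF-kB inhibitor that NF-kB itself induces, was at 992, 2296.1 and 194 CPM in uninjured cortex, injured cortex and cultures and fell by -3.57 ± 0.49 between the last pair (adjusted p = 0.000107). Tnfaip3, which encodes A20, fell by -2.44 ± 0.32 (adjusted p = 6.78e-05), and Tollip went the other way at 0.89 ± 0.25 (adjusted p = 0.0103).

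The target cytokines and enzymes showed the widest swing of the pathway lists. Of 18 genes, 10 rose and none fell with injury (list median 2.47). In the cultures against injured cortex 1 rose and 14 fell (median -4.77). The list summed to 813 to 6269 TMM CPM in uninjured cortex, 5504 to 17142 in injured cortex and 778 to 926 in the cultures. The uninjured range thus overlapped both others. Per library total it was 1097 to 7086, 7666 to 16072 and 597 to 663 CPM, without overlap. Uninjured replicate 1 was the library at 7086. Il1b, the gene of interleukin-1 beta, was at 60.9 CPM in uninjured cortex, 1439.8 in injured cortex and 0.633 in the cultures (4.56 ± 0.66 with injury, adjusted p = 0.000929; -11.18 ± 0.92 in the cultures, adjusted p = 1.79e-06). Cxcl10, an interferon-induced chemokine, was at 16.0, 379.8 and 1.05 CPM (4.57 ± 0.74, adjusted p = 0.00181, then -8.49 ± 0.92, adjusted p = 1.6e-05). Nfkbiz, an NF-kB cofactor, was at 163, 464 and 5.80 CPM and fell by -6.32 ± 0.43 in the cultures (adjusted p = 4.22e-07). Il12a was at 0 counts in all cultures against 180 in injured cortex, at least 60.3-fold lower by the same floor, and the list median is the same with that bound in place. Ptgs2, the inducible prostaglandin synthase, went against the list: it was at 1.92, 24.8 and 118 CPM and rose both with injury (3.70 ± 0.57, adjusted p = 0.00127) and in the cultures against injured cortex (2.26 ± 0.50, adjusted p = 0.00299).

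Of 10 genes for endogenous ligands, 6 rose and 1 fell with injury (list median 2.04), and 4 rose and 4 fell in the cultures against injured cortex (median -0.66). Saa3, an acute-phase protein, went from 0.0653 to 11.5 CPM (7.23 ± 0.74, adjusted p = 9.61e-05), and Fn1, fibronectin, from 13.9 to 68.0 CPM (2.29 ± 0.38, adjusted p = 0.00218). S100a8, 1 subunit of the alarmin calprotectin, rose with injury by 1.96 ± 0.42 (adjusted p = 0.0103) and fell in the cultures by -2.04 ± 0.42 (adjusted p = 0.00194). Bgn, the matrix proteoglycan biglycan, fell with injury by -1.01 ± 0.27 (adjusted p = 0.0298, not called when uninjured replicate 2 or 3, injured replicate 1 or 2 or culture replicate 3 was left out) and was at 491 CPM in the cultures against 6.37 (6.27 ± 0.33, adjusted p = 8.41e-08). Tnc, tenascin-C, was at 153 CPM in the cultures against 4.70 (5.01 ± 0.52, adjusted p = 1.1e-05). Neutrophil markers (10 genes, S100a8 and S100a9 among them) summed to 208 to 286 TMM CPM in uninjured cortex, 485 to 674 in injured cortex and 189 to 217 in the cultures. In the cultures 1 of them was higher and 9 lower than in injured cortex (median -5.17). Against uninjured cortex 1 was higher and 5 lower (median -2.66). Pericyte, smooth muscle and fibroblast markers (8 genes) summed to 272 to 658, 179 to 216 and 3341 to 3932 in the same order of groups. Against injured cortex, 6 of these were higher and 2 lower in the cultures. The part of these cell types in the ligand results was not tested.

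Of 10 other innate sensors, 4 rose and none fell with injury (list median 1.48), and 9 fell and none rose in the cultures against injured cortex (median -1.60). Zbp1, a sensor of Z-form nucleic acid, went from 1.38 to 67.4 CPM with injury (5.60 ± 0.66, adjusted p = 0.000231), and Dhx58 from 7.03 to 47.1 CPM (2.74 ± 0.43, adjusted p = 0.00144). Sting1, the adaptor of cytosolic DNA sensing, fell in the cultures by -2.39 ± 0.33 (adjusted p = 0.000117) and Nlrp3, an inflammasome sensor, by -4.96 ± 0.77 (adjusted p = 0.000258).

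Between the cultures and uninjured cortex, the counts of genes higher and lower were 4 and 1 for co-receptors, 4 and 2 for chaperones and proteases, 1 and 0 for adaptors, 10 and 3 for kinases and ligases, and 3 and 3 for negative regulators. They were 0 and 2 for transcription factors, 2 and 12 for cytokines, 5 and 2 for endogenous ligands and 1 and 2 for other sensors. Of all genes, 60.5% were called in that comparison, 27.5% higher and 33.1% lower. Over the 96 genes of the 9 lists, edgeR at an unadjusted p under 0.05 had 52 higher and 2 lower with injury, where 26.2% of all genes passed. It had 19 higher and 48 lower in the cultures against injured cortex, where 57.1% did. Against uninjured cortex the cultures had 31 higher and 34 lower, where 65.1% of all genes passed.

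The counts moved when single libraries were left out, an alternative for the lists chosen after the data were seen. With injury, the genes that rose went from 1 to 0 (without uninjured replicate 3, injured replicate 1 or injured replicate 2), 3 (without uninjured replicate 1) or 5 (without injured replicate 3) for co-receptors. For adaptors they went from 1 to 0 without uninjured replicate 2 or 3 or injured replicate 1, and to 2 without uninjured replicate 1 or injured replicate 3, and for chaperones and proteases to 3 without injured replicate 3. For kinases and ligases they went from 3 to 1 without injured replicate 1 and to 5 without injured replicate 3. They went to 2 without uninjured replicate 2 or 3, injured replicate 2 or any of the cultures. For transcription factors they went from 3 to 5 without injured replicate 3. For endogenous ligands they went from 6 to 4 without uninjured replicate 2 or injured replicate 1. Without uninjured replicate 1 or 3 or any of the cultures, 5 ligands rose. For negative regulators they went from 4 to 1 without uninjured replicate 2 or 3 or injured replicate 1 or 2, and to 2 without culture replicate 3. They went from 10 to 6 without uninjured replicate 2 for cytokines (14 without injured replicate 3), and from 4 to 2 without uninjured replicate 2 or injured replicate 1 for other sensors (6 without injured replicate 3).

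In the cultures against injured cortex, the lower negative regulators went from 6 to 3 without culture replicate 2 or 3, and the higher ones from 1 to 2 without injured replicate 2. Chaperones and proteases went from 4 higher to 2 without culture replicate 2, and from 2 lower to 1 without injured replicate 1 or 2 or any of the cultures. Lower kinases and ligases went from 2 to 1 without injured replicate 2 or culture replicate 2 or 3, and lower adaptors from 1 to 0 without culture replicate 3 or to 2 without uninjured replicate 1 or 3 or injured replicate 3. Against uninjured cortex, lower cytokines went from 12 to 7 without culture replicate 2 or 3, and to 8 without uninjured replicate 1 or culture replicate 1. Higher co-receptors went from 4 to 2 without uninjured replicate 2 or 3 or culture replicate 1 or 2. There, lower kinases and ligases numbered 3 and ranged from 0 (without culture replicate 2) to 5 (without injured replicate 3), with 1 without uninjured replicate 3 or culture replicate 3. Lower chaperones and proteases went from 2 to 0 without uninjured replicate 1 or any of the cultures and to 1 without uninjured replicate 2. Higher adaptors went from 1 to 2 without uninjured replicate 1, and higher other sensors from 1 to 2 without injured replicate 1 or 3. Lower transcription factors and lower other sensors each went from 2 to 4 without injured replicate 3.

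Without uninjured replicates 2 and 3, a further alternative of that kind, the number of genes that rose with injury went from 10 to 4 for the cytokines, from 6 to 5 for the ligands, from 4 to 1 for the other sensors, and from 3, 3 and 4 to 0 for the transcription factors, the kinases and the negative regulators. The genes that remained called were Il1b, Il10, Cxcl10 and Ptgs2 among the cytokines, S100a8, S100a9, Tnc, Fn1 and Saa3 among the ligands, and Zbp1 among the sensors. The uninjured library left in that setting, replicate 1, had the highest cytokine sum of its group. Per library total it was 7086 CPM, against 1915 and 1097 in replicates 2 and 3. Its negative regulators summed to 4060 CPM, against 2689 and 1136. Between the cultures and injured cortex, 14 cytokines, 5 transcription factors and 8 other sensors were then lower. Between the cultures and uninjured cortex, 5 kinases and ligases were then higher in place of 10, and 2 co-receptors in place of 4.

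**Figure D5:**
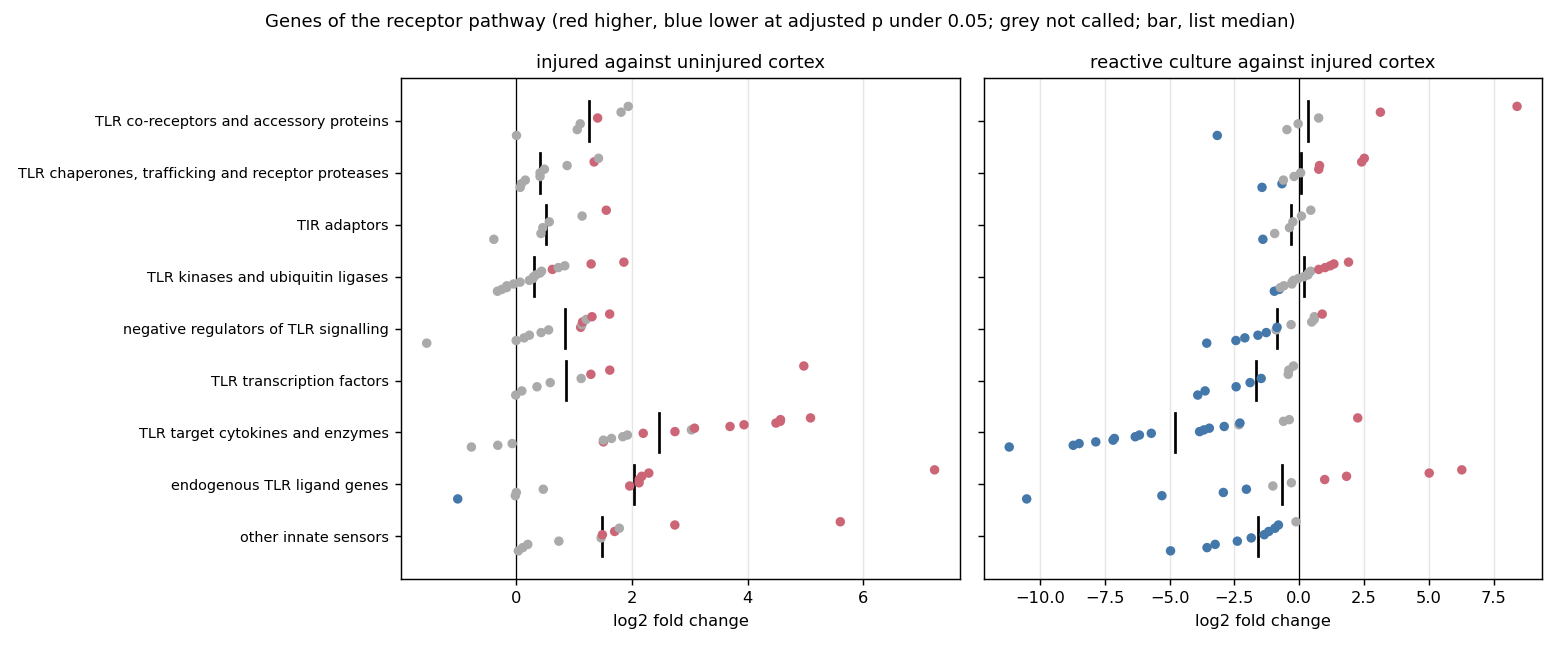
Log2 fold change (horizontal axis) of each gene of 9 lists of the receptor pathway with injury (left) and in cultures against injured cortex (right); red and blue points passed an adjusted p of 0.05, grey points did not, and bars are list medians. The cytokine list has its bar at 2.47 on the left and at -4.77 on the right; the fitted value of Il12a on the right, a gene at 0 in the cultures, is no bound.

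Genes with the pattern nearest to each member were found by the root mean square (RMS) difference of centred log2 CPM over the 9 libraries, among 11097 genes averaging 5 CPM or more. The genes nearest to Tlr2 were Arl5c (RMS 0.37), H2-Q5 (0.41) and the chemokine gene Ccl4 (0.45), where the median gene was at 1.76. Nearest to Tlr13 were Ndc1 (0.097), Dse (0.15) and Spcs3 (0.15), with a median of 1.02. Nearest to Tlr3 were Papss1 (0.14), Rps6ka5 (0.17) and Epc1 (0.20), with a median of 1.21. For Tlr1 the phosphatase gene Ptpn6 was nearest (0.15), for Tlr4 Cnot7 (0.22), for Tlr6 Cyth4 (0.15) and for Tlr7 Rp2 (0.12). Among the 7 members that average 5 CPM or more, which leave out Tlr5, Tlr8 and Tlr9, the closest pair was Tlr6 and Tlr7 (0.20) and the farthest Tlr2 and Tlr13 (2.25).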

How the data were processed

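The 9 poly(A) RNA libraries comprised 3 each from uninjured cortex, injured cortex and reactive culture. The authors deposited raw read counts per gene, and HISAT2 and GRCm39 are named in the submitters' processing notes. No source used here gives the tool that counted reads, its use of strand, or the annotation. Of 56748 genes, 19741 had 0 counts everywhere. Where a symbol repeated, the row with the highest total kept it.

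The tests used edgeR 4.0.16 under R 4.3.3: filterByExpr at its defaults (18093 genes tested), TMM scaling, 1 mean per group over all 9 libraries (6 residual degrees of freedom), quasi-likelihood tests and Benjamini-Hochberg adjustment over all genes, with a threshold of 0.05. Called means past that threshold. The 95% intervals come from the same fit. The design text calls the 3 libraries of a group biological replicates; no 2 of them agreed within sampling noise, and counting intervals cover counting error only. Exon lengths came from GENCODE M21 (GRCm38), since no annotation of GRCm39 was used here. RIG-I was matched by its symbol Ddx58.

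The members and the gene lists were chosen with earlier results of these data known, so no p-value was adjusted over a list alone. The 10 members are all named. Other names were drawn from up to 4 genes per pathway list and comparison with the smallest adjusted p, and called genes that go against their list. They were also drawn from up to 3 nearest genes per member with a mean of at least 5 CPM (log2 CPM with a prior count of 2). Not every gene that meets these rules is named. Cd14, Ly96, Myd88 and Ticam1 are named for their role, with their values known. Other settings were DESeq2 1.42.0 (size factors, Wald test), upper-quartile scaling, library sizes that leave out mitochondrial genes and the top 100, limma 3.58.1 with voom, no filter, 1 CPM in 3 libraries, only the groups compared, a replicate block and leaving out libraries. List counts without libraries and the NF-kB consensus were added after the data were seen. The test was checked on simulated data. The summed level of the B cell markers is not reported here.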

Additional observations from a re-analysis of the deposited data

How the results depend on the processing

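With 1 library left out at a time, the genes called with injury ranged from 974 (without injured replicate 1) to 4102 (without injured replicate 3), against 2145; they were 1123 without uninjured replicate 2 and 1284 without uninjured replicate 3. Fitting only the groups compared, which uses fewer samples, gave 1369. Leaving out uninjured replicates 2 and 3 gave 462, with 0 members called higher. Between cultures and uninjured cortex, leaving out both gave 6997 genes called in place of 10954. The cause of these moves was not tested.

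Between cultures and injured cortex, Tlr2, Tlr3, Tlr5, Tlr8, Tlr9 and Tlr13 stayed called in the same direction in all 19 alternatives. Between cultures and uninjured cortex this held for Tlr3, Tlr5, Tlr8 and Tlr13, while Tlr9 was called in 12 of 18 (with only the 2 groups it was not tested), Tlr2 lower in 6 of 19 and Tlr4 higher in 4 of 19. Tlr1 was called with injury in 4 of 19. Signs turned in comparisons where the member was called under no alternative. The Tlr4 injury difference was -0.0024 with DESeq2 size factors, -0.077 with upper-quartile factors, -0.15 with library sizes without abundant genes, -0.00089 with the DESeq2 Wald test, -0.12 with limma-voom, -0.14 without uninjured replicates 2 and 3, and -0.18 to 0.40 without single libraries. The Tlr6 injury difference was -0.061, -0.12, -0.19, -0.061, -0.093 and -0.25 in the same settings, -0.027 with 1 CPM in 3 libraries, -0.013 with only the groups compared, and -0.41 to 0.23 without single libraries. The Tlr7 injury difference was -0.036 with library sizes without abundant genes and -0.055 to 0.37 without single libraries (lowest without injured replicate 2). Without single libraries, Tlr6 between cultures and injured cortex was -0.55 to 0.11 (highest without injured replicate 2) and Tlr7 between cultures and uninjured cortex -0.28 to 0.055 (highest without culture replicate 3).

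Whether replicate numbers pair libraries is not stated, and correlations of same-numbered deviations, at -0.088 to 0.353, do not settle it. With a replicate block, the Tlr4 injury difference was -0.030, that of Tlr6 -0.042 and that of Tlr1 0.94 (adjusted p = 0.0487, now called). Tlr4 was then called higher in the cultures against injured cortex (adjusted p = 0.0248) and uninjured cortex (0.0236).

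Of the genes called with injury 75.8% were higher, and 64.0% with upper-quartile factors, 65.4% with library sizes without abundant genes and 60.6% with the DESeq2 Wald test. With library sizes without abundant genes, the share higher in the cultures fell from 39.9% to 29.1% against injured cortex and from 45.4% to 31.4% against uninjured cortex; the median of all genes was then -0.15, -0.46 and -0.60 in the 3 comparisons. The members summed per 1000 pan-myeloid counts were 41.3 without Csf1r and 38.2 without Tyrobp in uninjured cortex, 63.2 and 63.6 in injured cortex, and 50.03 without Tyrobp in the cultures. Depth limits Tlr5, Tlr8, Tlr9, Tlr11 and Tlr12, with 0 to 6 counts in total in at least 1 group. Per library total in place of TMM, the cultures no longer lay above the cortex groups for Tlr4, and lay below both for Tlr1, Tlr6 and Tlr7 and below uninjured cortex for Tlr2, and injured cortex lay above uninjured cortex for Tlr1.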
